A study of Homo sapiens with 68 samples.

Results

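CDKN1A, GDF15, MDM2, FAS, TNFRSF10B, SESN1, DDB2, XPC, TP53I3 and BBC3 are 10 genes that the transcription factor p53 is known to activate, and their transcripts were followed in A673 cells under 3 cytotoxic compounds. The genes were chosen by name, with earlier results of these data known. They are 10 of the 11882 genes that have a probe set with 1 gene symbol on the array. Each was read by the brightest of its probe sets by mean signal. Together the genes had 19 of the 22215 probe sets tested, and the dimmer ones served as a check. All 10 were measured, and no gene was dropped for low signal.

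In cells with an intact p53 pathway, DNA damage activates the kinases ATM and ATR and their partners CHEK2 and CHEK1, p53 escapes from its inhibitor MDM2, and target genes are switched on. The targets stop the cell cycle (CDKN1A), repair DNA (DDB2, XPC), temper oxidative and growth signals (SESN1), signal outside the cell (GDF15) or prepare cell death (FAS, TNFRSF10B, BBC3, TP53I3), while MDM2 closes the loop by degrading p53. Several of these genes are also reached without p53, since GDF15 and TNFRSF10B are targets of the stress factors ATF4 and CHOP and CDKN1A answers to many growth and differentiation signals. A673 is known as a Ewing sarcoma line without functional p53. ARA-C (cytarabine) is a cytosine nucleoside that blocks DNA synthesis, doxorubicin intercalates into DNA and traps topoisomerase II, and puromycin ends growing peptide chains and so blocks translation.

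The study asked whether cytotoxic agents other than ARA-C bring about the same expression pattern. Expression was measured on Affymetrix human arrays in A673 cells, a single line that carries the EWS/FLI fusion, so that every group shares this background. The treatments were ARA-C (0.17 and 0.34 uM), doxorubicin (59.88 and 119.76 nM, written 60 and 120 nM hereafter), puromycin (0.09 and 0.18 uM) and the DMSO vehicle, for 24 h, 3 days or 5 days, the lower dose being the EC50 and the higher 2 times the EC50. Each treated group held 3 arrays, except 120 nM doxorubicin on day 5 (2), 0.09 uM puromycin on day 5 (2 used) and 0.18 uM puromycin on day 5 (1), and vehicle had 6, 5 and 6 arrays at 24 h, day 3 and day 5. The arrays are labelled biological replicates, but nothing states whether they came from cultures grown on separate occasions, so the p-values measure the spread between these arrays.

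The mean signal of an array lay between 1094 and 1103, and 0.2206% to 22.45% of its probe sets lay under the floor of 10 (median 19.93%). The lowest shares were 0.2206% in replicate 3 of 0.17 uM ARA-C on day 3 and 0.9408% in replicate 2 of 0.34 uM ARA-C at 24 h. Their lowest 10% of signals reached up to 34.65 and 22.17, against at most 12.37 in the other arrays used. The array left out, described next, had 0.1756% and 21.09. Beyond leaving each array out in turn, what this did to dim genes was not tested. One array of 0.09 uM puromycin on day 5 (replicate 3) was left out: its HBB (beta globin) signal was 30550, against at most 123.2 in the 67 arrays used, and its NKX2-2 signal was 156.1, against a median of 4717. In the 67 arrays the Ewing sarcoma markers NKX2-2, STEAP1, PRKCB, CCND1 and CD99 all lay at or above 765, and the blood cell markers HBB, HBA1, PTPRC, CD74 and SRGN lay at or below 123.2. Of 30 comparisons each, these blood markers were called higher in 6 with doxorubicin, 2 with puromycin and 0 with ARA-C, and the Ewing markers were called lower in 8, 7 and 4 and higher in 0, 1 and 3. Of all probe sets, 9.6%, 4.75% and 9.7% were called higher and 16.6%, 11.4% and 13.1% lower with these compounds, in the same order, and the markers' part in the results was not tested. The ratio of 3′ to 5′ actin probe sets, a sign of RNA length, was highest in 3 groups of day 5: its group mean on the log2 scale was 3.71 for 0.17 uM ARA-C, 4.55 for 120 nM doxorubicin and 4.13 for 0.18 uM puromycin, against 1.29 for vehicle. Arrays lay in rows A-F or G-H of the array plate. On day 5 the actin ratio was 1.92 to 2.08 in the vehicle arrays of A-F and 0.53 to 0.66 in those of G-H. RNA quality and plate part thus cannot be told apart in these vehicle arrays. The vehicle arrays of every time fell in both parts, all groups of 0.34 uM ARA-C and 0.18 uM puromycin on day 5 in G-H, and every other treated group in A-F. Vehicle held 3 arrays in each part at each time, except 2 in A-F on day 3. The vehicle arrays of the plate parts differed for several of these genes on day 5. Against the vehicle arrays of the same plate part, 13 of the 180 changes lost their call and 11 gained one. Values are given for part of these. In cultures that contain dying cells, fewer cells of a kind and less RNA per cell cannot be told apart.

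The promoters of CDKN1A, GDF15, TP53I3 and DDB2, the 4 genes called in the most groups, are shown to place the transcripts on the genome and to mark the binding letters that lie at their starts. RefSeq windows from 250 bases before to 50 after the transcript start (GRCh38.p14) were at hand for 9 of the 10 genes, 17 windows in all, and were searched on both strands among 35116 promoters. The 250 bases before the start of CDKN1A (chr6:36678464-36678713, plus strand, 76.4% G and C), GDF15 (chr19:18385908-18386157, plus strand, 58.4%), TP53I3 (chr2:24084835-24085084, minus strand, 51.2%) and DDB2 (chr11:47214204-47214453, plus strand, 55.6%) read as follows, with 3 kinds of promoter element in capitals on whichever strand they lie, namely the GC box spelled GGGCGG, the CCAAT box and the TATA box spelled TATAAA.
CDKN1A: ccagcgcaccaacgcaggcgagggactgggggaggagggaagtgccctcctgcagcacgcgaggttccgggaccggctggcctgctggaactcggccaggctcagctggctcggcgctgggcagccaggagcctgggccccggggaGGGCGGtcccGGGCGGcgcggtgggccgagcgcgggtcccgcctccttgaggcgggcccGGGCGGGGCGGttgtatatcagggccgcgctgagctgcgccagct
GDF15: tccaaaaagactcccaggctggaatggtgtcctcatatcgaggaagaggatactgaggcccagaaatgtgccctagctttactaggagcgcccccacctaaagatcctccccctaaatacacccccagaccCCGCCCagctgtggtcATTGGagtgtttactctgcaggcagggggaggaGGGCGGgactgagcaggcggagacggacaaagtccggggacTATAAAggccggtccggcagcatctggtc
TP53I3: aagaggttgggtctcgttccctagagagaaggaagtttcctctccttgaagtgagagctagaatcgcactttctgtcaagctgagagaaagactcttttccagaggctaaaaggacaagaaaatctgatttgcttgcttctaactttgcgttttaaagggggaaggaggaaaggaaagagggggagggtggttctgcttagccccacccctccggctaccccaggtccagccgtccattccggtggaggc
DDB2: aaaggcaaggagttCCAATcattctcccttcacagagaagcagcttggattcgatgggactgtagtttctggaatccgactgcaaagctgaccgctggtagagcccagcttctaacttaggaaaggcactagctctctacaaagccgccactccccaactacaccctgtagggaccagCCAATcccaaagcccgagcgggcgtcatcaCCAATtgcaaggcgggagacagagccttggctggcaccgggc

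CDKN1A had 4 GC boxes, 104, 94, 45 and 40 bases before its start. GDF15 had 2 GC boxes (119 and 70 bases before the start), a CCAAT box (103) and the TATA box (29), which no other of the genes had. DDB2 had 3 CCAAT boxes (236, 72 and 42), and the TP53I3 window held none of these letters. Over all promoters, 45% held a GC box, 34.6% a CCAAT box and 11.5% a TATA box, and over the 17 windows 7, 5 and 1 of the 9 genes did. The element TGATGNAA, which ATF4 and CHOP bind, was in 3.62% of all promoters and in none of the 9. The 10-base p53 half-site was in 6.63% of all promoters and in windows of FAS, SESN1 and DDB2, printed here with the matching bases in capitals because p53 is known to bind such letters: FAS (chr10:88991299-88991328, plus strand, from -122 to -113), SESN1 (chr6:109009018-109009047, minus strand, from -49 to -40) and the second start of DDB2 (chr11:47214975-47215004, plus strand, 6 to 26 bases after the start). The known p53 sites of several targets lie farther from the start and were outside these windows.
FAS: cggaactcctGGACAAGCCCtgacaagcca
SESN1: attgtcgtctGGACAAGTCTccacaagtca
DDB2: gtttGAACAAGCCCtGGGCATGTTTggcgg
Only the DDB2 window held a pair of such sites, 1 base apart, which 10 of the 35116 promoters (0.0285%) did with a spacer of up to 13 bases. The search counted full matches alone, so a pair with an imperfect half-site, in FAS or SESN1 too, would not show. A match is a description of letters and not a measured binding site.

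Against vehicle, the 10 genes gave 22 higher and 5 lower calls in 60 comparisons with ARA-C (10 genes in 6 groups), 15 higher and 12 lower with doxorubicin, and 1 higher and 13 lower with puromycin. A call is an adjusted p under 0.05 (limma, Benjamini-Hochberg over all 22215 probe sets), and changes are on the log2 scale of signals floored at 10. CDKN1A, GDF15 and TP53I3 made 16 of the ARA-C calls that were higher and 12 of those of doxorubicin, MDM2 and BBC3 had no higher call, and under puromycin CDKN1A and GDF15 fell in 4 groups each. Setting the arrays to a common median moved the split of higher and lower calls to 20 and 6 for ARA-C, 17 and 8 for doxorubicin and 5 and 10 for puromycin, and quantile normalization moved it to 29 and 4, 21 and 8, and 3 and 9. Before such scaling the median change over all probe sets lay between -0.30 and 0.28 in the 18 groups.

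**Figure D1:**
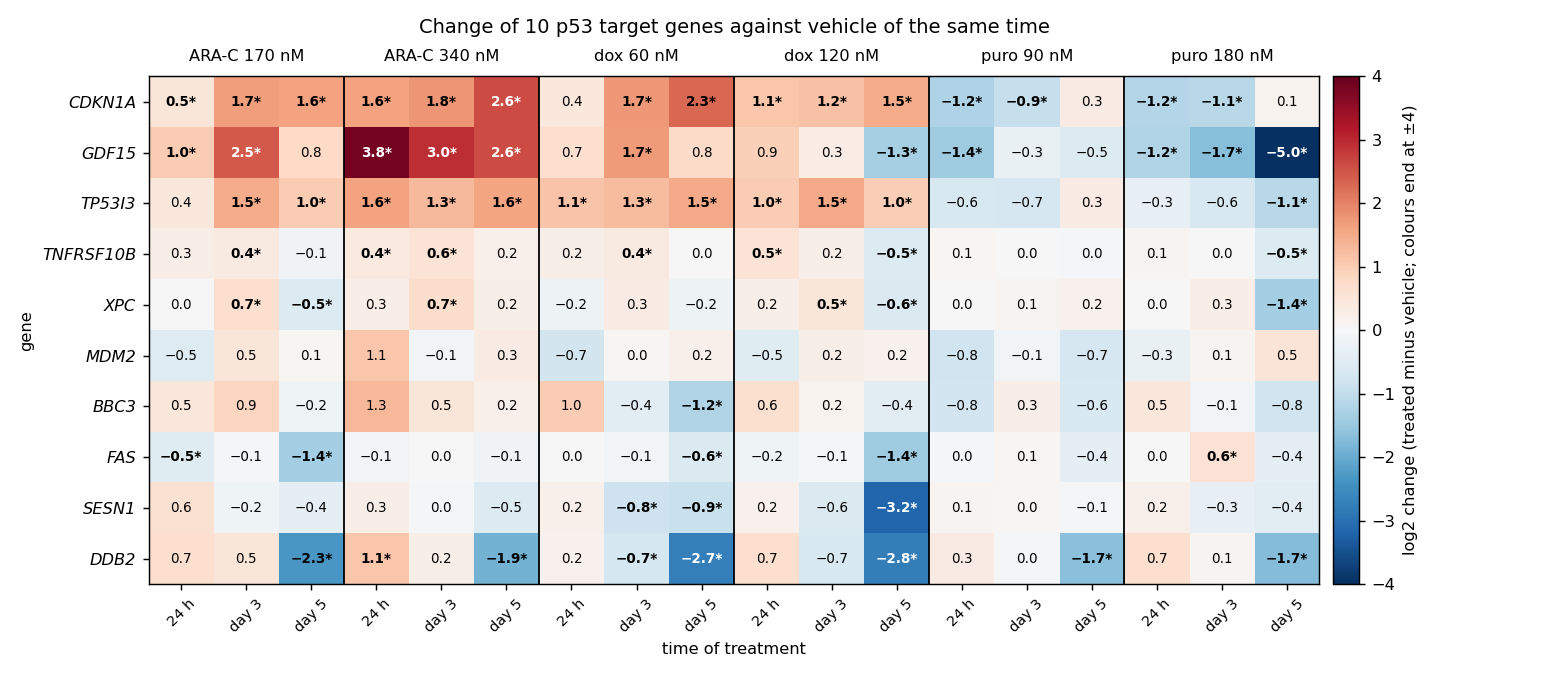
Log2 change of each of the 10 genes (down the page) in the 18 treated groups (across, by compound, dose and time) minus the vehicle arrays of the same time, with an asterisk at an adjusted p under 0.05. CDKN1A and TP53I3 were higher in 11 of the 12 ARA-C and doxorubicin groups each, MDM2 was called in none, and DDB2 was lower in all 6 treated groups of day 5.

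The counts are set beside what the whole array did. Those shares cover every probe set, dim ones included, while each of the 10 genes was read on its brightest. The genes were also chosen with earlier results of these data known. A count above the share is thus a description and not a test. At 24 h, 0.17 uM ARA-C gave 2 higher and 1 lower of the 10 genes, where 5.42% of all probe sets were higher and 8.97% lower, and 0.34 uM gave 5 and 0, where 6.66% and 2.21% were. On day 3, 0.17 uM gave 5 and 0 (all probe sets 14.5% higher and 7.92% lower) and 0.34 uM gave 5 and 0 (9.95% and 8.05%). On day 5, 0.17 uM gave 2 and 3 (10.3% and 38%) and 0.34 uM gave 3 and 1 (11.4% and 13.6%). The median change of the 10 genes was largest at 0.34 uM and 24 h, 1.11, where the median over all probe sets was 0.20. That group includes an array with few probe sets under the floor (replicate 2).

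For doxorubicin at 60 nM, the calls were 1 higher and 0 lower at 24 h (all probe sets 2.52% and 2.75%), 4 and 2 on day 3 (9.03% and 11.1%), and 2 and 4 on day 5 (12.1% and 29.2%). At 120 nM they were 3 and 0 at 24 h (6.59% and 7.72%), 3 and 0 on day 3 (11.5% and 11.1%), and 2 and 6 on day 5 (15.8% and 37.9%), with a median of -0.55 over the 10 genes and -0.25 over all probe sets on that day. For puromycin at 0.09 uM, they were 0 and 2 at 24 h (2.09% and 8.41%), 0 and 1 on day 3 (0.675% and 2.4%), and 0 and 1 on day 5 (5.31% and 12.1%). At 0.18 uM they were 0 and 2 at 24 h (3.31% and 4.29%), 1 and 2 on day 3 (4.32% and 7.13%), and 0 and 5 in the single array of day 5 (12.8% and 33.8%). The lower calls of day 5 thus fell in groups where 12.1% to 38% of the whole array was lower.

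CDKN1A encodes p21, the inhibitor of cyclin-dependent kinases that holds cells in G1. Under 0.17 uM ARA-C its signal was 769.8, 840 and 817.7 at 24 h, 1910, 1550 and 1575 on day 3 and 1275, 953.5 and 1092 on day 5. Under 0.34 uM ARA-C it was 1764, 2052 and 1515 at 24 h, 1768, 1768 and 1720 on day 3 and 2434, 1984 and 2158 on day 5. Vehicle arrays ran from 443.3 to 742 (median 588.7) at 24 h, from 461.4 to 608.6 (median 500.1) on day 3 and from 243.4 to 547.7 (median 350.9) on day 5, so that no ARA-C array overlapped its vehicle group. The changes under 0.34 uM were 1.62, 1.75 and 2.61 (SE 0.17, 0.18 and 0.17, adjusted p 8.1e-10, 3.1e-11 and 2.7e-18), the last a 6.11-fold higher signal. Under 0.17 uM they were 0.50, 1.68 and 1.62 (adjusted p 0.041, 1.9e-10 and 9.1e-12). The first of these, at 24 h, was lost when any 1 of 6 arrays was left out (any ARA-C array, or vehicle replicate 1, 2 or 3), and also with the plate part as a block (0.48, adjusted p 0.07), with the replicate number as a block (0.49, adjusted p 0.082) and with a common median (0.52, adjusted p 0.13), while it was 0.82 (adjusted p 9.6e-06) against the vehicle arrays of its own plate part.

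Under doxorubicin CDKN1A was called higher in 5 of 6 groups. At 60 nM the signal was 837.1, 739.5 and 734.8 at 24 h, 1594, 1922 and 1726 on day 3 and 1949, 1670 and 1635 on day 5. At 120 nM it was 1253, 1141 and 1288 at 24 h, 1098, 1267 and 1156 on day 3 and 951.4 and 1051 on day 5. The lower dose thus had the lower signal at 24 h and the higher signal on days 3 and 5. Changes at 60 nM were 0.42 at 24 h (adjusted p 0.15, but 0.75 and adjusted p 6.8e-05 within the plate part), 1.74 on day 3 (adjusted p 2.2e-11) and 2.29 on day 5 (adjusted p 1.4e-16). At 120 nM they were 1.10, 1.17 and 1.48 (adjusted p 4.1e-06, 5.9e-07 and 4.5e-09).

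Under puromycin CDKN1A fell. Its signal was 282.7, 233.5 and 224.9 at 24 h and 260.2, 302 and 264.2 on day 3 at 0.09 uM, and 235.1, 313.4 and 226.3 at 24 h and 262.8, 230.2 and 232.7 on day 3 at 0.18 uM, every array below the vehicle arrays of its time. It fell by 1.22 and 0.92 at 0.09 uM (adjusted p 1.6e-06 and 0.00051), and by 1.17 and 1.11 at 0.18 uM (adjusted p 4e-06 and 4.1e-06). The day 3 call at 0.09 uM was lost with a common median (-0.71, adjusted p 0.1) and after quantile normalization (-0.70, adjusted p 0.075). On day 5 the 438.2 and 456.8 of 0.09 uM and the single 393.3 of 0.18 uM lay within the vehicle range, although 0.18 uM was 0.58 higher (adjusted p 0.0063) than the vehicle arrays of its plate part.

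**Figure D2:**
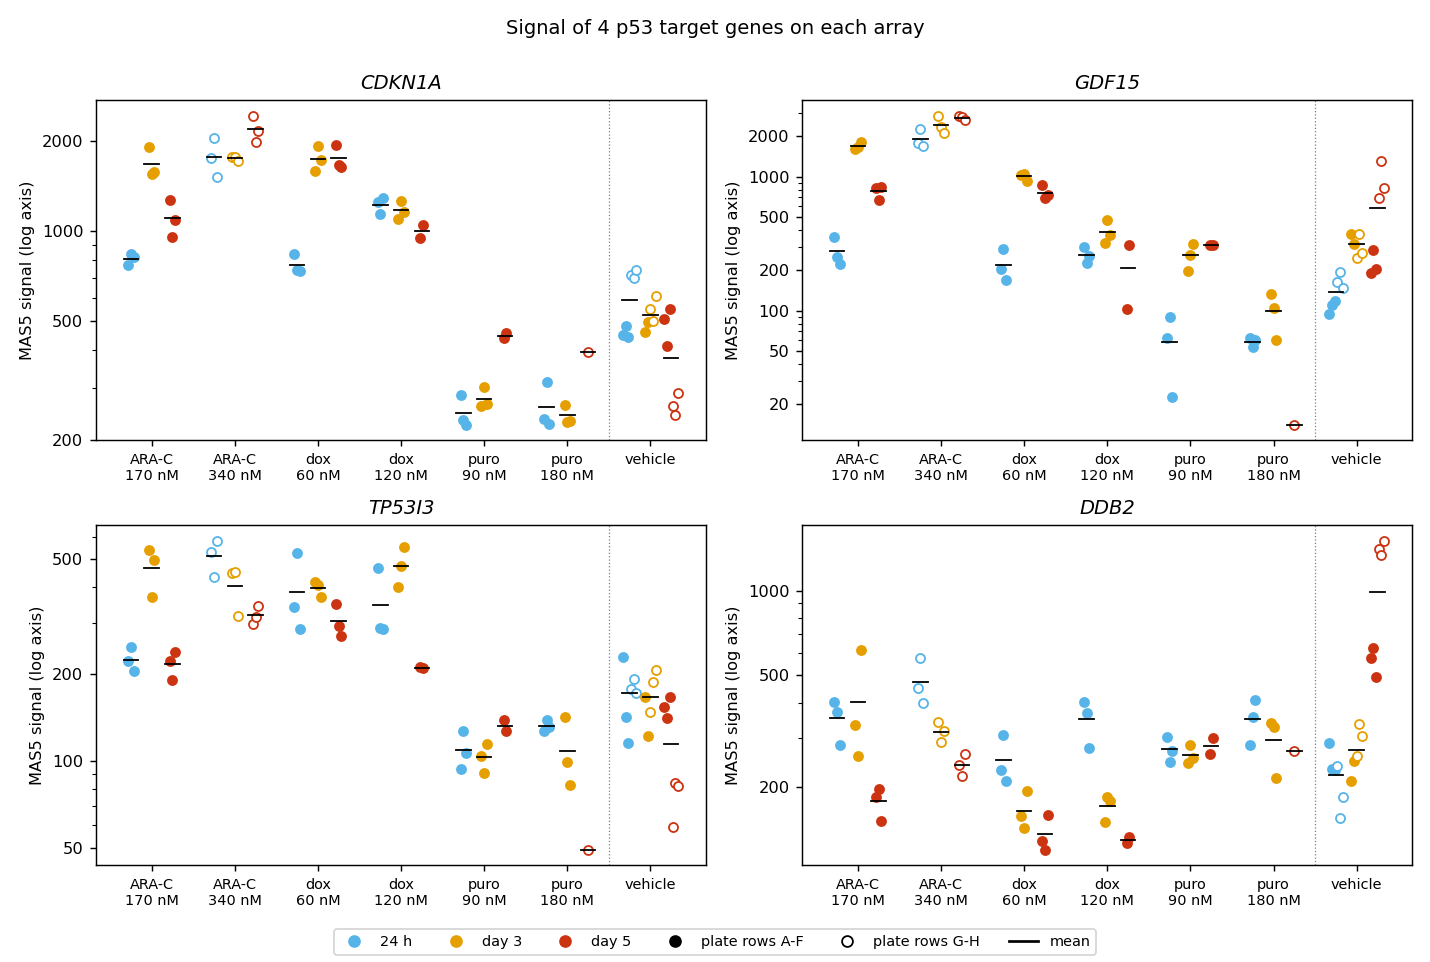
Deposited signal (log axis) of CDKN1A, GDF15, TP53I3 and DDB2 in each array by treatment, with 1 point per array, colours for the time, open points for plate rows G-H, bars for group means and vehicle at the right. The CDKN1A, GDF15 and TP53I3 points of ARA-C and doxorubicin on day 3 lie above every vehicle array of that day except for GDF15 at 120 nM doxorubicin, and the DDB2 points of every treated group on day 5 lie below the lowest vehicle array, at 492.2.

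GDF15 encodes a secreted stress cytokine of the TGF-beta family, and it showed the widest range of the 10 genes. Its signal under 0.34 uM ARA-C was 1785, 2245 and 1679 at 24 h, 2842, 2359 and 2119 on day 3 and 2812, 2798 and 2641 on day 5. Under 0.17 uM ARA-C it was 355.7, 252.1 and 222.7 at 24 h, 1617, 1670 and 1797 on day 3 and 823.4, 671.2 and 832.4 on day 5. Vehicle ran from 93.5 to 193.8 (median 132.2) at 24 h, from 247.6 to 372 (median 312.2) on day 3 and from 189.6 to 1306 (median 486.9) on day 5. The higher dose gave a 14.2-fold higher signal at 24 h (log2 3.82, SE 0.36, adjusted p 1.7e-11), and 2.97 and 2.62 on days 3 and 5 (adjusted p 1.1e-08 and 4.6e-08). The lower dose gave 1.02 (adjusted p 0.044), 2.45 (adjusted p 1.7e-06) and 0.78 (adjusted p 0.066). The 24 h call was lost without any 1 of 6 arrays, the 3 of ARA-C and vehicle replicates 1, 2 and 3.

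Doxorubicin at 60 nM gave GDF15 signals of 202.9, 287.6 and 169.2 at 24 h, 1021, 1051 and 930.7 on day 3 and 863.1, 686.1 and 731.2 on day 5, and 120 nM gave 296.9, 225.4 and 254.2, then 318.5, 473.5 and 364, then 102.6 and 310.6. Only the day 3 group of 60 nM was called higher (1.69, adjusted p 0.00039), and the day 5 group of 120 nM was called lower (-1.33, adjusted p 0.0053). That call was lost without replicate 1 (-0.53) and the change was -2.13 without replicate 3. The day 5 vehicle arrays fell apart by plate part, 189.6 to 284.1 in A-F and 689.6 to 1306 in G-H. Against the A-F arrays alone, the day 5 changes were 1.77 at 60 nM (adjusted p 4.5e-06), -0.32 at 120 nM (adjusted p 0.48) and 1.80 for 0.17 uM ARA-C (adjusted p 1.9e-06), and the change at 0.34 uM ARA-C against the G-H arrays was 1.61 (adjusted p 2.6e-05). At 24 h, 60 and 120 nM doxorubicin were 1.01 and 1.27 above the A-F vehicle arrays (adjusted p 0.034 and 0.0021), while the values against all vehicle arrays, 0.69 and 0.95, were not called.

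Puromycin lowered GDF15 at 24 h to 62.57, 88.91 and 22.77 at 0.09 uM and to 62.17, 53.73 and 59.91 at 0.18 uM, all below the lowest vehicle array (-1.41 and -1.19, adjusted p 0.0059 and 0.028). The first call was lost without replicate 3 of that group (-0.84) and with the plate part as a block, and the second against the vehicle arrays of its plate part (-0.86, adjusted p 0.069) and without any of 5 single arrays, the 3 of puromycin and vehicle replicates 4 and 5. On day 3 it was 133.4, 104.1 and 60.64 at 0.18 uM (-1.71, adjusted p 0.00062) and 198, 262 and 315 at 0.09 uM (-0.29, adjusted p 0.91). The single day 5 array of 0.18 uM read 14.02, close to the floor (-5.00, adjusted p 6.6e-11). The probe set in use can bind related transcripts, and the other one for GDF15 lay under the floor in 58 of 67 arrays and was called in 1 of the 18 groups, 0.34 uM ARA-C at 24 h (1.53, adjusted p 0.012).

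TP53I3, also called PIG3, encodes a quinone oxidoreductase tied to oxidative stress in cell death. Its signal under 0.17 uM ARA-C was 221.3, 247.9 and 204.3 at 24 h, 536.7, 369.2 and 496.3 on day 3 and 222.1, 191.5 and 239.3 on day 5, and under 0.34 uM 530.2, 434.1 and 580.8, then 447.6, 450.3 and 319.3, then 298.9, 314.6 and 345.5. Under 60 nM doxorubicin it was 340.4, 527.3 and 287.6, then 415.9, 408.1 and 369.3, then 350.7, 294 and 270.6, and under 120 nM 466.8, 288.6 and 286.9, then 399.6, 472.4 and 553.3, then 211.2 and 210. Vehicle ran from 115.6 to 230 (median 175) at 24 h, from 122.1 to 206.2 (median 167.2) on day 3 and from 58.94 to 166.2 (median 112.3) on day 5. All doxorubicin arrays lay above vehicle, and only 0.17 uM ARA-C at 24 h overlapped it. It was the only one of the 10 genes called in every doxorubicin group, with changes from 0.99 to 1.53 (adjusted p at most 0.0016).

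The ARA-C changes of TP53I3 were 0.42 (adjusted p 0.27), 1.50 and 1.03 at 0.17 uM and 1.61, 1.29 and 1.58 at 0.34 uM. On day 5 the vehicle arrays read 140.7 to 166.2 in plate part A-F and 58.94 to 83.8 in G-H. Against the A-F arrays the changes were 0.50 for 0.17 uM ARA-C (adjusted p 0.072) and 0.46 for 120 nM doxorubicin (adjusted p 0.13), which were no longer called, and 0.99 for 60 nM doxorubicin (adjusted p 0.00043). Puromycin gave 82.68 to 142.3 over its 24 h and day 3 arrays, with changes from -0.67 to -0.34 that were not called, and 49.19 in the day 5 array of 0.18 uM (-1.11, adjusted p 0.0087, and -0.59, adjusted p 0.13, within the plate part).

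Among the repair genes, DDB2 encodes the subunit that finds ultraviolet lesions in DNA, and XPC recognises bulky lesions for nucleotide excision repair. DDB2 went both ways. At 24 h its signal was 451.2, 574.8 and 398 under 0.34 uM ARA-C, above the vehicle range of 155.9 to 288.3 (median 232.3), a change of 1.11 (adjusted p 0.0019). On day 5 it was 184.5, 197.9 and 152.3 under 0.17 uM ARA-C and 239.6, 219.4 and 263.4 under 0.34 uM. It was 129, 120.1 and 160 under 60 nM doxorubicin, and 127 and 133.7 under 120 nM. Puromycin gave 263.8 and 299 at 0.09 uM and 269.9 at 0.18 uM. Vehicle on day 5 read 492.2 to 625.5 in plate part A-F and 1341 to 1504 in G-H, well above its own 24 h and day 3 arrays, which reached 337.1 at most.

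All 6 day 5 groups were called lower for DDB2 against all vehicle arrays (-2.33 and -1.89 for 0.17 and 0.34 uM ARA-C, -2.72 and -2.77 for 60 and 120 nM doxorubicin, -1.67 and -1.72 for 0.09 and 0.18 uM puromycin, adjusted p at most 0.00017). They were also called against the vehicle arrays of their own plate part, with -1.67, -2.56, -2.05, -2.11, -1.001 and -2.39 in the same order (adjusted p at most 0.006). On day 3, 60 nM doxorubicin gave 158.4, 144 and 193.5, below the vehicle range of 211.4 to 337.1 (-0.71, adjusted p 0.042), but -0.48 (adjusted p 0.2) within the plate part, and the call was lost without any of 5 single arrays, doxorubicin replicates 1 and 2 and vehicle replicates 4, 5 and 6.

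**Figure D3:**
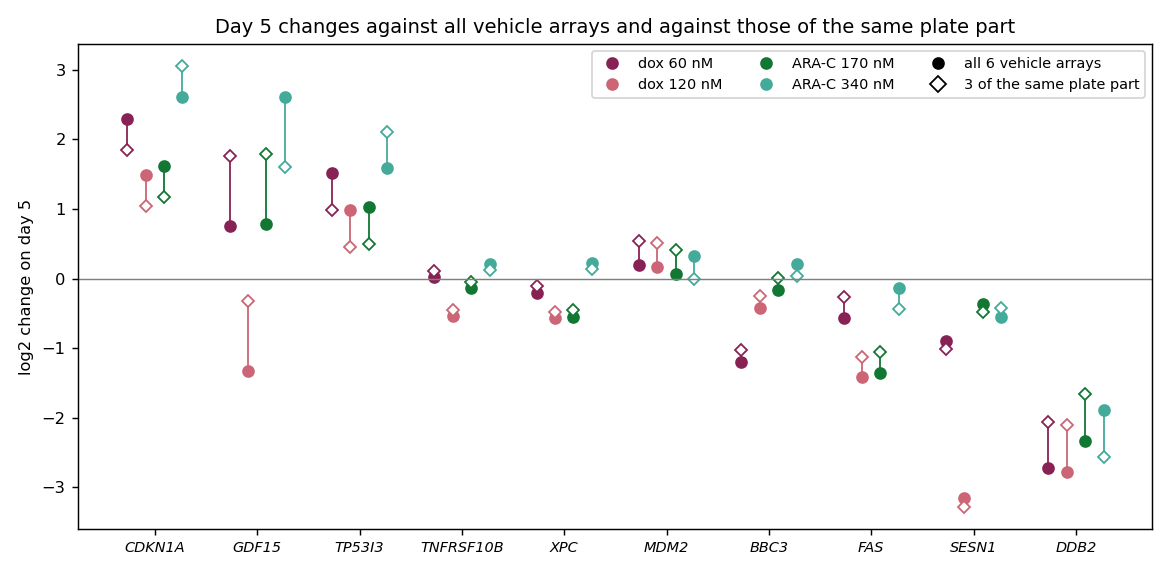
Log2 change of each gene on day 5 under doxorubicin and ARA-C against all 6 vehicle arrays (filled circles) and against the 3 of the same plate part (open diamonds), a line joining both values of a group. GDF15 in 60 nM doxorubicin moved to 1.77 and in 0.17 uM ARA-C to 1.80 within the plate part, while DDB2 was lower by both in all 4 groups shown.

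XPC was 1377, 1790 and 1160 under 0.17 uM ARA-C on day 3 and 1381, 1680 and 1356 under 0.34 uM, against 773.5 to 1207 (median 849.8) in vehicle, changes of 0.67 and 0.71 (adjusted p 0.0017 and 0.00061). The first was 0.44 (adjusted p 0.13) within the plate part and was not called with a common median. Under 120 nM doxorubicin on day 3 it was 1395, 1073 and 1305 (0.48, adjusted p 0.019, and 0.26, adjusted p 0.45, within the plate part), a call lost without any of 4 single arrays, doxorubicin replicates 1 and 3 and vehicle replicates 4 and 5. On day 5 it was lower under 0.17 uM ARA-C (-0.55, adjusted p 0.0021) and 120 nM doxorubicin (-0.56, adjusted p 0.0056), but these changes turned to 0.33 and 0.48 after quantile normalization, so their direction depends on the scaling of the arrays. The ARA-C call was lost without replicate 2 of that group (-0.30), and the doxorubicin call without replicate 1. The single array of 0.18 uM puromycin read 443.8, against 959.9 to 1293 in vehicle (-1.36, adjusted p 2.9e-06, but -0.36 and adjusted p 0.15 after quantile normalization).

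FAS and TNFRSF10B (DR5) encode death receptors at the cell surface that respond to FAS ligand and TRAIL. Neither showed a large rise. FAS ranged from 2764 to 5144 over the 24 h and day 3 arrays of ARA-C, doxorubicin and vehicle, and of these groups only 0.17 uM ARA-C at 24 h was called (-0.48, adjusted p 0.029), a call lost without any of 4 single arrays, ARA-C replicates 2 and 3 and vehicle replicates 1 and 3. The other FAS probe sets were also called lower in that group (-0.55, -1.43 and -1.47, adjusted p 0.012, 0.0086 and 0.014), and these were not tested by leaving arrays out. On day 5, FAS was 1947, 1304 and 1581 under 0.17 uM ARA-C and 1141 and 2016 under 120 nM doxorubicin, all below the vehicle range of 2908 to 5107 (median 4180). The changes were -1.35 (adjusted p 1.1e-10) and -1.42 (adjusted p 1.1e-09), and -1.05 and -1.12 within the plate part. Under 60 nM doxorubicin it was 3133, 2373 and 2743 (-0.57, adjusted p 0.0021), a call lost within the plate part (-0.27, adjusted p 0.19). The only rise was under 0.18 uM puromycin on day 3, 5133, 5296 and 6273 against 3473 to 4023 in vehicle (0.57, adjusted p 0.011), lost without replicate 3. The second FAS probe set gave changes of -1.72 and -1.64 in the first 2 day 5 groups, the same direction. On day 5 it was also called lower under 60 nM doxorubicin (-0.90, adjusted p 3.7e-06) and 0.34 uM ARA-C (-0.45, adjusted p 0.026). The dimmer FAS probe sets were called under 60 nM doxorubicin (-1.72 and -1.93, adjusted p 0.00027 and 0.00018) but not under 0.34 uM ARA-C (-0.10 and -0.37). In the single day 5 array of 0.18 uM puromycin these 3 probe sets changed by -0.95, -2.11 and -2.36.

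On its brightest probe set, TNFRSF10B rose by small amounts with narrow spread. Its signal under 0.34 uM ARA-C was 6037, 5913 and 5764 at 24 h and 6420, 6632 and 7032 on day 3, against 4091 to 4837 (median 4478) and 4110 to 5069 (median 4413) in vehicle. The changes were 0.40 (adjusted p 0.0029) and 0.56 (adjusted p 1.8e-05), 1.32 and 1.47 fold. On the dimmer TNFRSF10B probe sets the day 3 change was 0.10 and 0.11 and was not called (adjusted p 0.88 and 0.89), and the 24 h change was 0.73 and 0.69 (adjusted p 0.021 and 0.049). They were called higher under this dose on day 5 (0.80 and 0.89, adjusted p 0.003 and 0.0023). Both were called lower under 0.09 uM puromycin at 24 h (-0.69 and -0.71, adjusted p 0.027 and 0.037). Under 120 nM doxorubicin on day 5 both were also lower (-0.94 and -0.75, adjusted p 0.00095 and 0.015). The first was lower under 0.17 uM ARA-C at 24 h (-0.65, adjusted p 0.03). The probe sets thus differed in size, time and direction. Under 120 nM doxorubicin the brightest probe set read 6669, 6499 and 6376 at 24 h (0.55, adjusted p 2.5e-05), 5950, 5114 and 5097 on day 3 (0.24, adjusted p 0.067), and 3178 and 4047 on day 5, below the vehicle range of 4821 to 5701 (-0.54, adjusted p 2.8e-05). On day 3, 0.17 uM ARA-C and 60 nM doxorubicin gave 0.36 and 0.37 (adjusted p 0.0064 and 0.0039), which were 0.21 and 0.21 and not called within the plate part (adjusted p 0.23 and 0.22). With a common median, neither these nor the 24 h rise under 0.34 uM ARA-C were called. The fall on day 5 under 120 nM doxorubicin became 0.02 after quantile normalization, and the rise at 24 h became -0.24 (adjusted p 0.61) with the next brightest probe set. The single array of 0.18 uM puromycin on day 5 read 3601 (-0.54, adjusted p 0.0018), which became 0.11 after quantile normalization.

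BBC3, the BH3-only protein PUMA that triggers mitochondrial cell death, and MDM2, the ubiquitin ligase that degrades p53, were dim. BBC3 ran from 7.935 to 321.5 over all arrays with wide spread inside groups, such as 26.09, 96.45 and 141.9 under 0.17 uM ARA-C and 20.35 to 101.3 in vehicle at 24 h. Its largest changes were 1.32 under 0.34 uM ARA-C at 24 h (95% confidence interval 0.34 to 2.31, adjusted p 0.081) and -1.20 under 60 nM doxorubicin on day 5 (98.73, 74.13 and 23.18, adjusted p 0.044). That call was lost without any of 5 single arrays, doxorubicin replicate 3 (-0.57 without it) and vehicle replicates 2, 4, 5 and 6, and within the plate part (-1.02, adjusted p 0.19).

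MDM2 was not called in any of its 18 comparisons with vehicle. Its signal under 0.34 uM ARA-C at 24 h was 159.5, 159.2 and 202, above the vehicle range of 66.95 to 98.17 (median 77.22), a change of 1.11 (95% confidence interval 0.29 to 1.94, adjusted p 0.08). Under 120 nM doxorubicin it was 70, 74.03 and 34.82 at 24 h, 92.58, 111.1 and 109 on day 3 and 94 and 62.89 on day 5, overlapping vehicle each time, and the day 3 change of 0.24 had an interval of -0.61 to 1.09. The MDM2 probe set in use can bind related transcripts. The other MDM2 probe sets were dimmer still, and one of them, under the floor in 48 of 67 arrays, was called higher in 3 groups. These were 0.34 uM ARA-C at 24 h (1.22, adjusted p 0.023), 120 nM doxorubicin on day 5 (1.33, adjusted p 0.006) and the single array of 0.18 uM puromycin on day 5 (2.64). The actin 3′ to 5′ ratio was 4.55 and 4.13 in the day 5 groups, and its part was not tested. The remaining MDM2 probe sets were called in no group.

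SESN1, a sestrin that restrains mTORC1 and oxidative stress, was lower under doxorubicin from day 3. At 60 nM it was 89.36, 108.9 and 109.3 on day 3 and 104, 92.97 and 116.2 on day 5, and at 120 nM 121.3, 134.4 and 104.8 on day 3 and 9.454 and 47.03 on day 5. Vehicle ran from 165.4 to 202 (median 174.1) on day 3 and from 157.5 to 247.2 (median 180.6) on day 5, with no overlap. The changes were -0.82 (adjusted p 0.028) and -0.90 (adjusted p 0.0052) at 60 nM, and -0.59 (adjusted p 0.13) and -3.16 (adjusted p 6.1e-13) at 120 nM. The last rests on 2 arrays, one of them under the floor, and was -2.04 without replicate 1 and -4.27 without replicate 3, called both times. The day 5 call at 60 nM was lost with a common median (-0.54, adjusted p 0.14) and after quantile normalization (-0.51, adjusted p 0.16). The day 3 call was lost within the plate part, where 2 vehicle arrays remained and the change was no smaller (-0.87, adjusted p 0.072). It was also lost without any of 4 single arrays, the 3 of doxorubicin and vehicle replicate 2. No ARA-C or puromycin group was called, with changes from -0.55 to 0.61 for ARA-C and from -0.44 to 0.19 for puromycin.

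The compounds were compared directly at their EC50, where the groups of 0.17 uM ARA-C, 60 nM doxorubicin and 0.09 uM puromycin all lay in plate part A-F. Doxorubicin against ARA-C gave 2 higher and 1 lower calls in 30 comparisons (10 genes at 3 times). No gene was called at 24 h (all probe sets 3.07% higher and 2.43% lower). On day 3, DDB2 was lower, 158.4, 144 and 193.5 with doxorubicin against 332.6, 257.8 and 615.5 with ARA-C (-1.19, adjusted p 0.0036), where 2.32% of all probe sets were higher and 7.03% lower, a call lost without ARA-C replicate 3. On day 5, CDKN1A (0.67, adjusted p 0.01) and FAS (0.78, adjusted p 0.00087) were higher with doxorubicin, where 18.5% of all probe sets were higher and 4.02% lower, and the CDKN1A call was lost without ARA-C replicate 2 (0.56, adjusted p 0.085). CDKN1A on day 3 differed by 0.06 (95% confidence interval -0.34 to 0.46) and GDF15 by -0.76 (-1.59 to 0.07, adjusted p 0.24), although no array of the 2 GDF15 groups overlapped.

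Against puromycin, both DNA-directed compounds held CDKN1A and GDF15 higher at every time. Doxorubicin against puromycin gave 10 higher and 2 lower calls in 30. CDKN1A was 1.65, 2.66 and 1.96 higher at 24 h, day 3 and day 5, GDF15 2.10, 1.98 and 1.30 higher, and TP53I3 1.78, 1.95 and 1.20 higher (adjusted p at most 0.034). TNFRSF10B was 0.38 higher on day 3 (adjusted p 0.0093), SESN1 lower on day 3 (-0.86, adjusted p 0.049) and DDB2 lower on day 5 (-1.05, adjusted p 0.012). Of all probe sets, 2.58% were higher and 0.585% lower at 24 h, 9.3% and 6.81% on day 3 and 7.6% and 15.4% on day 5. Without puromycin replicate 2 of day 5, neither lower call remained.

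ARA-C against puromycin also gave 10 higher and 2 lower calls in 30. CDKN1A was 1.72, 2.60 and 1.30 higher and GDF15 2.43, 2.74 and 1.32 higher at the 3 times (adjusted p at most 0.02). TP53I3 was 1.05 and 2.17 higher at 24 h and day 3 (adjusted p 0.0097 and 1.2e-08) and 0.71 on day 5 (adjusted p 0.062). On day 3, TNFRSF10B (0.37, adjusted p 0.012) and XPC (0.57, adjusted p 0.019) were higher, and on day 5 FAS (-0.96, adjusted p 0.0001) and XPC (-0.71, adjusted p 0.0033) were lower. The background was 4.74% higher and 1.89% lower at 24 h, 13.9% and 4.79% on day 3, and 7.94% and 27.3% on day 5. The day 3 difference of TNFRSF10B turned to -0.18 when arrays were set to a common median, the day 5 difference of XPC to 0.01 after quantile normalization, and without ARA-C replicate 2 of day 5 XPC was no longer called (-0.46, adjusted p 0.084).

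**Figure D4:**
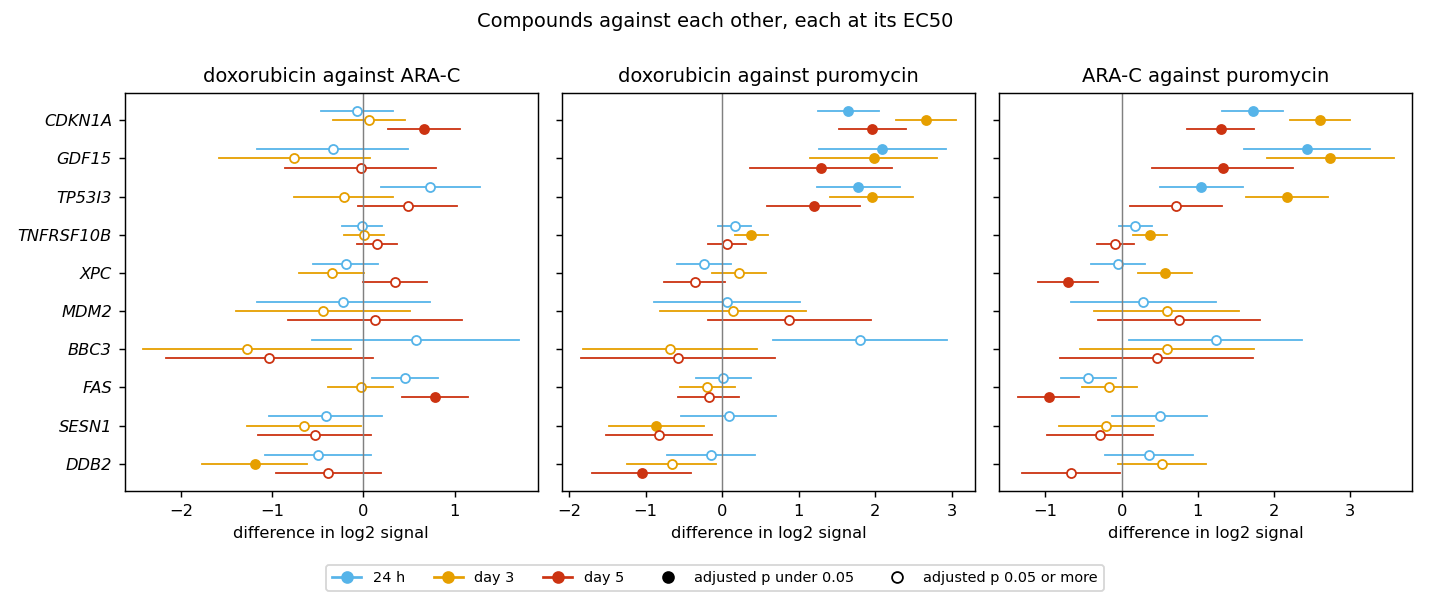
Log2 difference between compounds at the EC50 (doxorubicin over ARA-C, doxorubicin over puromycin, ARA-C over puromycin) for each gene at 24 h, day 3 and day 5, with 95% confidence intervals. Differences from puromycin reach 2.66 for CDKN1A and 2.74 for GDF15 on day 3, and those between doxorubicin and ARA-C stay within 1.28 of 0.

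The doses of doxorubicin, both in plate part A-F, differed on day 5. At 120 against 60 nM no gene was called at 24 h (0.221% of all probe sets higher and 0.158% lower) or on day 3 (0.648% and 0.648%), although the arrays of GDF15 did not overlap on day 3, 318.5, 473.5 and 364 at 120 nM against 1021, 1051 and 930.7 at 60 nM (-1.39, adjusted p 0.075). On day 5, where 6.37% of all probe sets were higher and 23% lower, 5 of the 10 genes were lower at 120 nM. They were CDKN1A (-0.80, adjusted p 0.004), GDF15 (-2.08, adjusted p 0.00042), FAS (-0.85, adjusted p 0.0009), TNFRSF10B (-0.56, adjusted p 0.00034) and SESN1 (-2.26, adjusted p 1.4e-06). Both 120 nM arrays lay below the 3 of 60 nM in each. Without replicate 1 of the 120 nM group only SESN1 was still called (-1.15, adjusted p 0.021), and CDKN1A (-0.73, adjusted p 0.061), GDF15 (-1.28, adjusted p 0.11), FAS (-0.44, adjusted p 0.21) and TNFRSF10B (-0.39, adjusted p 0.066) were not. The actin 3′ to 5′ ratio was 4.55 in that group and 2.48 at 60 nM, and its part in the result was not tested. The ARA-C doses lay in different plate parts and were not set against each other.

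The related genes on the array gave the setting. Of 29 other p53 targets 21 were measured, and they made 21 higher and 14 lower calls of 126 with ARA-C, 26 and 23 of 126 with doxorubicin and 14 and 17 of 126 with puromycin. Over the same groups, 9.7% of all probe sets were called higher and 13.1% lower with ARA-C, 9.6% and 16.6% with doxorubicin and 4.75% and 11.4% with puromycin, the shares against which this and the following lists are read. PLK2, a polo-like kinase, was higher in 5 of 6 ARA-C and 5 of 6 doxorubicin groups, by up to 3.09 (60 nM doxorubicin on day 5, adjusted p 2.1e-16), and in no puromycin group. IGFBP3, which binds insulin-like growth factors, had mean signals of 153.9 and 302.6 under 60 nM doxorubicin and 22.81 and 15.16 in vehicle on days 3 and 5 (2.82 and 4.22, adjusted p 4.2e-05 and 9e-10). PHLDA3, an inhibitor of AKT, was lower in 2 doxorubicin, 1 ARA-C and 2 puromycin groups, and ZMAT3, an RNA-binding protein, in 4 doxorubicin, 2 ARA-C and 2 puromycin groups. The median change of the 21 genes lay between -0.39 (0.18 uM puromycin on day 5, all probe sets -0.30) and 0.36 (0.34 uM ARA-C at 24 h, all probe sets 0.20) over the 18 groups.

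Of 15 genes of the p53 family and its control 12 were measured, with 10 higher and 19 lower calls of 72 for ARA-C, 6 and 23 for doxorubicin and 4 and 8 for puromycin. The checkpoint kinase CHEK2 was lower in 5 of 6 groups of ARA-C and of doxorubicin and in 2 of puromycin, most under 120 nM doxorubicin on day 5 (-2.31, adjusted p 2.4e-15). MDM4, the MDM2 partner that silences p53, fell in 4 doxorubicin, 2 ARA-C and 2 puromycin groups, though its mean signal was at most 83.72 in any vehicle group.

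Of 12 genes of the ATF4 and CHOP stress response 11 were measured, with 23 higher and 11 lower calls of 66 for ARA-C, 19 and 22 for doxorubicin and 12 and 11 for puromycin. At 24 h of 0.34 uM ARA-C, where GDF15 was 14.2-fold higher, 10 of the 11 were higher, with a median change of 1.23 (all probe sets 0.20). DDIT3, which encodes CHOP, was higher in all 6 doxorubicin groups and in 4 of 6 groups of ARA-C and of puromycin. Under 0.18 uM puromycin on day 3 DDIT3 was 1.69 higher (adjusted p 3.2e-11), where GDF15 was lower (-1.71). ASNS, asparagine synthetase, fell in 4 doxorubicin groups, 1 ARA-C group and 1 puromycin group. CHAC1, a glutathione-degrading enzyme, fell in 4 doxorubicin, 2 ARA-C and 4 puromycin groups, and ASNS and CHAC1 each rose in 1 ARA-C group. Of the lower calls of this list, 8 of 11 genes fell on day 5 of 0.17 uM ARA-C, 7 at each dose of doxorubicin and 6 at 0.18 uM puromycin, where 29.2% to 38% of all probe sets were lower.

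The 10 cell cycle genes that p21 is known to repress through the DREAM complex were lower in 43 of 60 comparisons with ARA-C and higher in 0, lower in 24 and higher in 7 of 60 with doxorubicin, and lower in 13 and higher in 2 of 60 with puromycin. Of the 13, 9 came from the single day 5 array of 0.18 uM puromycin, where 33.8% of all probe sets were lower. PLK1, the mitotic kinase, and CENPA, the centromeric histone, were lower in all 6 ARA-C groups. On day 3 of 60 nM doxorubicin, where CDKN1A was 3.35-fold higher, 0 of the 10 were lower and 2 higher (median 0.17, all probe sets 0). Under 0.17 uM ARA-C on day 3, where CDKN1A was 3.21-fold higher, 6 were lower (median -0.46, all probe sets 0.28). At these doses, doxorubicin against ARA-C on day 3 had 7 of the 10 higher, where 2.32% of all probe sets were higher and 7.03% lower.

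Over the 18 treated groups, which share their vehicle arrays, plate and RNA quality within a time, the changes of the genes followed each other unequally, given here as a description. Pearson r was 0.88 between CDKN1A and TP53I3, 0.81 between GDF15 and TP53I3, 0.82 between TNFRSF10B and XPC, 0.64 between CDKN1A and GDF15 and -0.41 between CDKN1A and DDB2. Among 8443 other genes, the changes most like those of CDKN1A were those of DKK1, EBI3 and SYNPO (r 0.95, 0.95 and 0.95), of GDF15 those of DRAM1, CAVIN3 and ILK (0.95, 0.94 and 0.94), of TP53I3 those of ICAM1, INPP1 and GGT3P (0.94, 0.94 and 0.93) and of DDB2 those of ALDOC, TMEM45A and TMEM8B (0.97, 0.97 and 0.96). For MDM2 the highest was CHRNA9 at 0.84.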

How the data were processed

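The authors deposited MAS5 signals, linear intensity values per probe set, from Trizol RNA on Affymetrix arrays in plate format. MAS5 is named in the submitters' processing notes, and its version is not given in the sources used here. Control probe sets (715 of 22930) were removed, and genes were named where the platform annotation gave a probe set 1 symbol (19230 of 22215). Values below 10 were raised to 10 before taking log2. A single linear model (limma 3.58.1 with an intensity trend, R 4.3.3) held the 21 group means of 67 arrays, and 30 contrasts were taken, with two-sided p-values adjusted by Benjamini-Hochberg over all probe sets. The fit was tested on simulated data. Plate rows came from the study's sample table. Precision is limited by the 1 to 6 arrays per group. Alternatives were quantile and median scaling, other floors, a cap of 16000, omission of dim probe sets, no trend, plate part or replicate number as a block, vehicle of the same plate part, other probe sets, the left-out array kept, only the arrays compared, and each array left out. Besides the 10 genes, text names come from the 4 of each list with the largest mean change under doxorubicin and the 3 of most similar pattern. The members and lists were chosen with earlier results of these data known.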

Additional observations from a re-analysis of the deposited data

Results flagged for a closer look

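XPC in the vehicle arrays of 24 h read 1227 in replicate 5, away from the other 5 arrays at 972.3 to 1053. It was the only such value in 30 tests of 1 gene in 1 group (Dixon's 95% limit), and chance alone gives about 1 in 20. Only groups of 4 to 10 arrays were tested, which are the vehicle groups, so no treated group was. TNFRSF10B in 120 nM doxorubicin moved 0.55 and 0.24 at 24 h and day 3 and -0.54 on day 5, every array above vehicle at the first 2 times and below it at the last, and the difference between times was not tested. DDB2 in 0.34 uM ARA-C moved 1.11 at 24 h, every array above vehicle, and -1.89 on day 5, every array below it, and this difference was not tested either. In the array left out for its blood transcripts, SESN1 read 622, against at most 247.2 in vehicle on day 5, and BBC3 read 185.8, against at most 163.6.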

How the results depend on the processing

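Of the 68 calls of the 10 genes against vehicle, 40 were kept under every omission of 1 array and every alternative other than the next brightest probe set. That alternative could be run for 23 of the 68 calls, of which 8 were kept, 13 lost and 2 reversed, and 33 of the 40 were kept with it or had no other probe set. In all 6 calls turned direction, 4 of them after quantile normalization: XPC under 0.17 uM ARA-C (0.33, adjusted p 0.036) and 120 nM doxorubicin (0.48, adjusted p 0.0071) on day 5, and TNFRSF10B under 120 nM doxorubicin (0.0226) and 0.18 uM puromycin (0.11) on day 5. Among the differences between ARA-C and puromycin at the EC50, XPC on day 5 turned to 0.00515 after quantile normalization and to 0.32 with the blood array kept, FAS on day 5 to 0.12 with that array kept, and TNFRSF10B on day 3 to -0.18 with a common median. With the next brightest probe set, TNFRSF10B under 120 nM doxorubicin at 24 h was -0.24, GDF15 under 0.18 uM puromycin on day 5 0.24, and GDF15 in 60 nM doxorubicin against puromycin on day 5 -0.31. With the blood array kept, 20 of the 180 changes lost their call, and with a common median 15 did. The causes were not tested.

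Counts of calls moved as follows. Quantile normalization gave 3 higher for puromycin, 0 higher for doxorubicin against ARA-C, 0 lower for ARA-C against puromycin and 3 lower for the doxorubicin doses. A common median gave 5 higher for puromycin, 1 higher for doxorubicin against ARA-C and 5 lower for ARA-C against puromycin. A floor of 32 gave 2 lower for doxorubicin against ARA-C, and no floor gave 1 lower for doxorubicin against puromycin, as did the arrays of the compared compounds and vehicle alone. The plate part as a block gave 2 higher for puromycin, and the vehicle of the same plate part gave 7 lower for doxorubicin and 2 higher for puromycin. With the blood array kept the counts were 3 lower for ARA-C, 7 lower for doxorubicin, 0 higher for puromycin, 0 higher for doxorubicin against ARA-C, 1 lower for ARA-C against puromycin and 3 lower for the doxorubicin doses. The next brightest probe set, which exists for 4 of the 10 genes, gave 3 higher for ARA-C, 0 for doxorubicin and 2 lower for puromycin, and 2 higher for doxorubicin against ARA-C, 0 higher for doxorubicin against puromycin and 1 higher for ARA-C against puromycin. These counts cover those 4 genes alone and cannot be set against the counts over all 10.

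Same-numbered arrays showed no sign of pairing: over 43 such pairs in 17 comparisons the deviations from the group mean correlated between -0.099 and 0.114. Pairing is not excluded, because the vehicle means span both plate parts. For 0.34 uM ARA-C the check could not find it, as those arrays lay in G-H and the vehicle arrays of the same numbers in A-F. With the replicate number as a block, puromycin had 2 higher calls and doxorubicin against puromycin 1 lower, and of the 180 changes against vehicle 7 lost their call and 8 gained one.

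Leaving out 1 array at a time gave 20 to 24 higher and 4 to 5 lower calls for ARA-C, 14 to 17 and 10 to 13 for doxorubicin, and 0 to 1 and 12 to 14 for puromycin, the 0 without replicate 3 of 0.18 uM puromycin on day 3. The ranges were 1 to 3 and 0 to 1 for doxorubicin against ARA-C, 9 to 10 and 0 to 2 for doxorubicin against puromycin, 9 to 11 and 1 to 2 for ARA-C against puromycin, and 0 to 0 and 1 to 5 for the doxorubicin doses. Signals near the floor limit what can be said of MDM2 and BBC3, and groups of 1 or 2 arrays on day 5 limit precision.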
